A study of Homo sapiens with 18 samples.

Results

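The VEGF ligands, receptors and neuropilins were followed across 3 derivatives of K562, an erythroid-like leukemia line of human origin. Members were the genes VEGFA, VEGFB, VEGFC, PGF, FLT1, KDR, FLT4, NRP1 and NRP2, taken by symbol from both RNA-seq tables, 9 of the 28395 genes listed, together with every ATAC-seq region within 5 kb of them, 33 of 85549 regions. The control line was V-K562, labelled only as K562 cells. The line B-K562 made wild-type BASP1 (wtBASP1), and the line G-K562 made BASP1-G2A, a mutant that lacks the site of N-terminal myristoylation. BASP1 is a transcriptional corepressor that K562 cells lack, and one of its partners is the transcription factor WT1. All 3 lines were stable derivatives selected as pools with G-418, so no line is a single clone, and differences between pools that do not come from BASP1 cannot be told apart from its effect. Every line was assayed as biological triplicates, by RNA-seq and, separately, by ATAC-seq, which gave 9 libraries per assay.

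In the VEGF system, secreted ligands bind receptor tyrosine kinases on the cell surface. VEGFA is the main angiogenic ligand and acts through KDR, the principal signalling receptor of endothelial cells, while FLT1 binds VEGFA, VEGFB and PGF and can act as a decoy, and FLT4 binds VEGFC and VEGFD and is known for the growth of lymphatic vessels. NRP1 and NRP2 are coreceptors with short cytoplasmic tails that also bind class 3 semaphorins. Transcription of VEGFA is raised in low oxygen by hypoxia-inducible factors, and its GC-rich promoter can be bound by SP1, EGR1 and WT1. Leukemic cells can make VEGFA themselves.

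BASP1 had normalised read counts of 7, 5 and 7 in the V-K562 libraries, 6849, 6618 and 6189 in B-K562 cells and 9323, 12538 and 8124 in G-K562 cells, so both BASP1 lines carried its mRNA. All 12 K562 markers examined were at 10 or more in every library, but their summed level ranged from 135224 to 151088 in V-K562 cells, from 219045 to 222430 in B-K562 cells and from 74423 to 80841 in G-K562 cells. Most of each sum was HBE1, HBG2 and TFRC. Against V-K562 cells, all markers but NFE2 (-0.14 on the log2 scale) passed as higher in B-K562 cells. In G-K562 cells all passed as lower but TFRC, which rose by 0.56, and EPOR, which did not pass (-0.12). Of 10 endothelial markers, 4 were at 10 or more in every library, PECAM1, ENG, ESAM and TIE1, while CDH5 never passed 1 and EMCN was at 0 in all 9 libraries. The 10 summed to 670 to 728, 423 to 518 and 688 to 782 in the same order, most of it PECAM1, at means of 463, 335 and 578. The 6 monocyte markers summed to 1353 to 1397, 1314 to 1451 and 3801 to 4329, nearly all of it LYZ, and the 6 fibroblast markers to 1591 to 1923, 917 to 1857 and 1292 to 1410. Among B-K562 libraries the fibroblast marker COL3A1 lay between 2.03 and 585 at a mean of 197, so nearly all of it was in 1 library. The part of these shifts in the results was not tested. As estimated from the pattern that rounding left in the values, a library held 28914432 to 37419914 reads assigned to genes, so 1 unit of a normalised read count is about 1 read and values near 10 carry a large counting error.

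VEGFA, the ligand with the highest level in V-K562 cells, was much lower with wtBASP1 than in the control and lower by a smaller amount with BASP1-G2A. VEGFA (Entrez 7422) lies on the forward strand of chromosome 6, from 43770209 to 43786487 in GRCh38. Its normalised read counts were 16137, 16215 and 17513 in V-K562 cells and 3373, 3431 and 3492 in B-K562 cells, so the B-K562 libraries lay close together and far below the control. The B-K562 mean was 20.6% of the V-K562 mean, a log2 fold change of -2.27 (standard error 0.05, 95% interval -2.38 to -2.17, adjusted p = 4.3e-13, limma-trend). Log2 fold changes are on the scale of log2(value + 1) throughout, where the change of a weakly expressed gene appears smaller than it is.

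In the table of the other comparison VEGFA stood at 16384, 16463 and 17868 in V-K562 cells and at 11435, 11885 and 11977 in G-K562 cells. The lines again did not overlap, but the G-K562 mean was still 69.6% of the control, a log2 fold change of -0.52 (standard error 0.06, 95% interval -0.65 to -0.40, adjusted p = 8.4e-06). The tables were normalised separately, so the same V-K562 libraries read higher in the second, on average 1.017 times. With the B-K562 values multiplied by that factor and all 9 libraries in 1 fit, G-K562 cells exceeded B-K562 cells in VEGFA by 1.75 log2 units (95% interval 1.65 to 1.85, standard error 0.05). A fold change of a gene in bulk RNA cannot tell fewer expressing cells from less mRNA per cell.

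**Figure D1:**
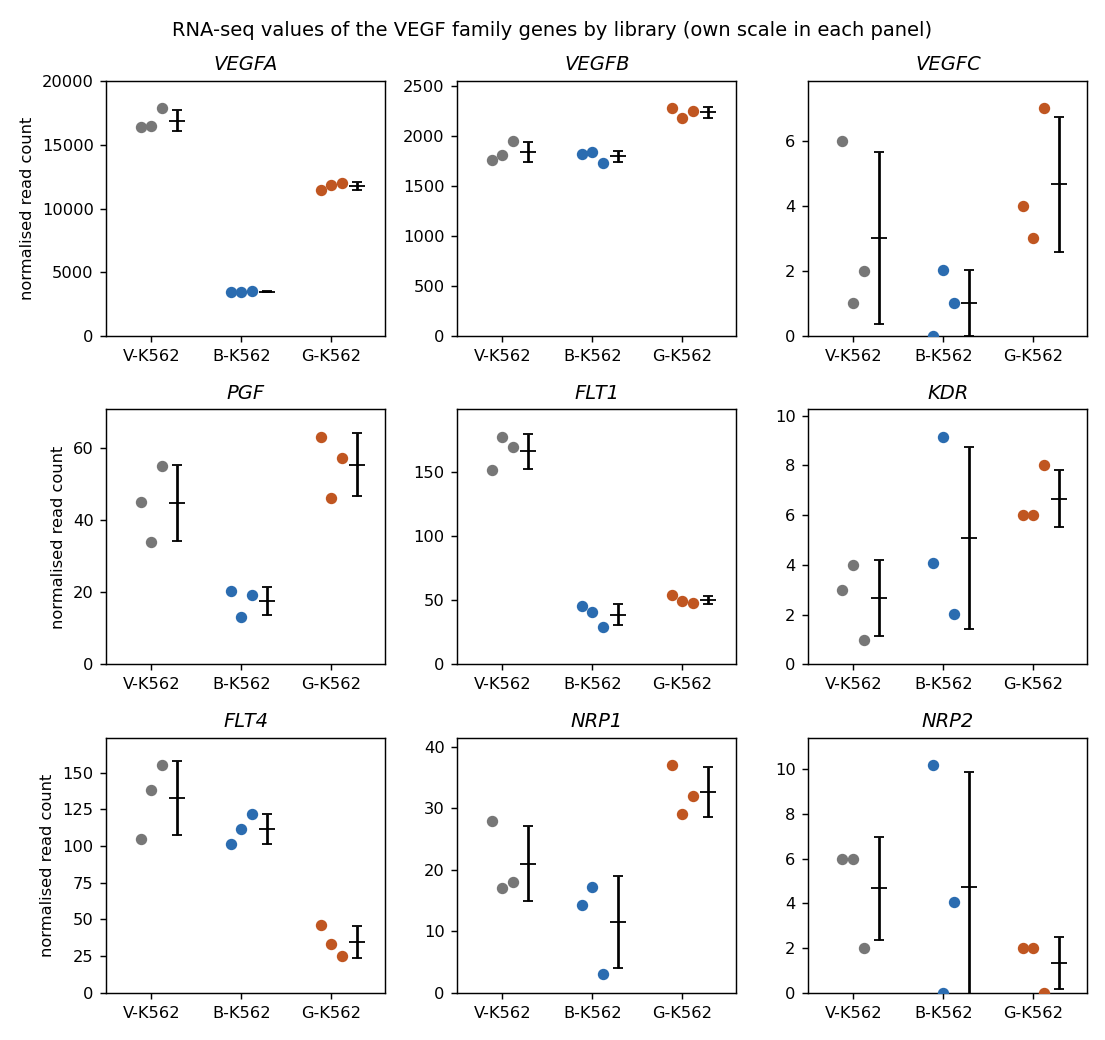
Normalised read counts of the 9 genes in every RNA-seq library, with the mean and SD of the 3 libraries of each line beside them and a linear axis from 0 in each panel. VEGFA and PGF were lowest in B-K562 cells, FLT1 was low in both BASP1 lines, FLT4 was low only in G-K562 cells, and VEGFC, KDR and NRP2 stayed at 10.2 or less in all libraries.

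VEGFB, a ligand of FLT1 and NRP1, did not follow VEGFA. VEGFB (Entrez 7423, chromosome 11, 64234584 to 64239264, forward strand) had values of 1734, 1775 and 1908 in V-K562 cells and 1782, 1803 and 1702 in B-K562 cells. The lines overlapped, and the log2 fold change was -0.03 (standard error 0.05, 95% interval -0.15 to 0.08, adjusted p = 0.57), although it passed after quantile normalization, at -0.18 (adjusted p = 0.010). In G-K562 cells the values were 2272, 2173 and 2248 against 1761, 1802 and 1946 in V-K562 cells, a rise of 0.28 (standard error 0.06, adjusted p = 0.0015). All 3 G-K562 libraries lay above all V-K562 libraries, and the G-K562 mean was 121.5% of the control. VEGFB was also higher in G-K562 than B-K562 cells, by 0.32 (standard error 0.05).

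PGF, placental growth factor, a ligand of FLT1, fell with wtBASP1 but did not pass the test with BASP1-G2A. PGF (Entrez 5228) lies on the reverse strand of chromosome 14, from 74941830 to 74955764. Its values were 45, 33 and 54 in V-K562 cells and 20, 13 and 19 in B-K562 cells, with no overlap. The log2 fold change was -1.29 (standard error 0.25, 95% interval -1.84 to -0.74, adjusted p = 0.00038). In G-K562 cells PGF was at 63, 46 and 57 against 45, 34 and 55 in V-K562 cells. These libraries overlapped, and the difference of 0.32 did not pass the test (95% interval -0.15 to 0.78, adjusted p = 0.21). The BASP1 lines themselves lay apart, by 1.61 (standard error 0.23, 95% interval 1.11 to 2.11). PGF lies in a stretch of chromosome 14, above 70 Mb, in which the 201 genes tested had a median log2 fold change of 0.62 between G-K562 and V-K562 cells, against 0.003 for all genes. Between B-K562 and V-K562 cells it was 0.006 over 193 genes, and between the BASP1 lines 0.61 over 203. The part of this shift in the PGF values was not tested.

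VEGFC, the ligand of FLT4, was near the limit of detection. VEGFC (Entrez 7424, chromosome 4, 176683534 to 176792745, reverse strand) had values of 6, 1 and 2 in V-K562, 0, 2 and 1 in B-K562 and 4, 3 and 7 in G-K562 libraries, and was not tested because fewer than 3 libraries reached 10. VEGFD, the other FLT4 ligand, which is not a member, did not exceed 2 in any library. At this depth a difference in either gene was not detectable.

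FLT1, the receptor that binds VEGFA, VEGFB and PGF, was lower in both BASP1 lines. FLT1 (Entrez 2321) lies on the reverse strand of chromosome 13, from 28300346 to 28495128. It had values of 149, 174 and 165 in V-K562 cells and 45, 40 and 29 in B-K562 cells. This was a fall of 2.09 on the log2 scale (95% interval -2.45 to -1.73, standard error 0.17, adjusted p = 7.9e-08). In G-K562 cells it was at 54, 49 and 48 against 151, 177 and 169 in V-K562 cells, so that the log2 fold change was -1.70 (standard error 0.14, 95% interval -1.997 to -1.40, adjusted p = 7.2e-07). Neither BASP1 line overlapped the control, and their means were 23.4% and 30.4% of it. The BASP1 lines differed by 0.39 at an adjusted p of 0.046 (95% interval 0.03 to 0.76), and this call was lost in 7 of 14 alternatives, among them quantile normalization, at 0.08, and each G-K562 library left out, at 0.34 to 0.43.

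RefSeq promoter windows, from 250 bases before to 50 after a start in GRCh38.p14, were given for 6 of the 9 members, VEGFB, VEGFC, PGF, FLT1, KDR and NRP2. The 250 bases before the start are printed for the 3 of them that were tested, of which PGF fell in B-K562 cells, FLT1 in both lines and VEGFB in neither, on the strand of the gene. Capitals mark 5 motifs on either strand. GGGCGG is the GC box bound by SP1. GCGTGGGCG and the related GCGGGGGCG are sites bound by EGR1 and WT1. ACGTG, also searched as GCGTG, is the core of the hypoxia response element. GCGTGGGCG contains GCGTG, and matches of GCGGGGGCG and GGGCGG can overlap.
PGF, chr14:74955765-74956014, reverse strand: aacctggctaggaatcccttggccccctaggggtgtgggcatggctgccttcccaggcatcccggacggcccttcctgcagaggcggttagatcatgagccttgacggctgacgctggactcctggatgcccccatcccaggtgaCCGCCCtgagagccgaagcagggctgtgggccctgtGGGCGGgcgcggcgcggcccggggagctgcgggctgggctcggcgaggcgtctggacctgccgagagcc
FLT1, chr13:28495129-28495378, reverse strand: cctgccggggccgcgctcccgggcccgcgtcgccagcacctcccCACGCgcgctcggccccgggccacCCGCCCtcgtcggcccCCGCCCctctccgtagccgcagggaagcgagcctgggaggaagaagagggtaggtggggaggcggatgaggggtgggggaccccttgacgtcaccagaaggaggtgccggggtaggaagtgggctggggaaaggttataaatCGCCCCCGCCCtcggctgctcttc
VEGFB, chr11:64234334-64234583, forward strand: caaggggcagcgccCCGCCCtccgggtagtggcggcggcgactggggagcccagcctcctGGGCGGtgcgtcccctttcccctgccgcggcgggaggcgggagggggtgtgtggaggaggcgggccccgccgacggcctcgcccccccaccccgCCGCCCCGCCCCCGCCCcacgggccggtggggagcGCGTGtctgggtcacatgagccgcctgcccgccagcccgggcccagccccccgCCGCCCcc
In the whole windows of 300 bases GGGCGG was found 9 times in VEGFB, 3 times in FLT1 and NRP2, and 2 times in KDR, VEGFC and the PGF window at this start, and 45.0% of 35116 windows held it. GCGGGGGCG was found 2 times in VEGFB and 1 time in FLT1, against 5.07% of all windows. GCGTGGGCG, held by 0.795% of windows, and ACGTG, held by 21.4%, were in none of the members' windows. GCGTG, held by 36.5%, was found 1 time each in VEGFB, VEGFC, PGF and FLT1.

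FLT4, the receptor of VEGFC and VEGFD, was lower in G-K562 cells. FLT4 (Entrez 2324, chromosome 5, 180601506 to 180650271, reverse strand) had values of 103, 136 and 152 in V-K562 cells and 100, 110 and 120 in B-K562 cells, which overlapped, and the difference of -0.23 did not pass the test (95% interval -0.55 to 0.09, adjusted p = 0.18). Without V-K562 replicate 1, the lowest of its line, it passed at -0.39 (adjusted p = 0.018). In G-K562 cells the values were 46, 33 and 25 against 105, 138 and 155. These groups lay apart, with a G-K562 mean at 26.1% of the control and a log2 fold change of -1.93 (standard error 0.23, 95% interval -2.43 to -1.43, adjusted p = 1.6e-05). The direct comparison of G-K562 with B-K562 cells gave -1.70 (standard error 0.21, 95% interval -2.14 to -1.26).

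KDR (Entrez 3791, chromosome 4, 55078259 to 55125595, reverse strand), the main signalling receptor for VEGFA, was barely present. It had values of 3, 4 and 1 in V-K562, 4, 9 and 2 in B-K562 and 6, 6 and 8 in G-K562 libraries. No library reached 10, so it was not tested.

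NRP1, a coreceptor of VEGFA and of semaphorins, had low and variable values. NRP1 (Entrez 8829) lies on chromosome 10, 33177491 to 33334905, reverse strand, and had values of 28, 17 and 18 in V-K562 and 14, 17 and 3 in B-K562 cells. The libraries overlapped and the difference of -1.07 did not pass the test (95% interval -2.10 to -0.03, adjusted p = 0.058). Without B-K562 replicate 3, at 3, it was -0.39 (adjusted p = 0.29), whereas without replicate 1 or 2 of that line it passed, at -1.34 and -1.47. In G-K562 cells NRP1 was at 37, 29 and 32, above all V-K562 libraries, which were again at 28, 17 and 18. This rise of 0.64 passed the test (adjusted p = 0.038, 95% interval 0.10 to 1.18) but not with V-K562 replicate 2 or 3 or G-K562 replicate 1 or 3 left out, where the adjusted p was 0.13, 0.096, 0.13 and 0.074. Compared to B-K562 cells, G-K562 cells had more NRP1, by 1.69 (standard error 0.45, adjusted p = 0.0033). NRP2 (Entrez 8828, chromosome 2, 205682460 to 205798133, forward strand) had values of 6, 6 and 2 in V-K562, 10, 0 and 4 in B-K562 and 2, 2 and 0 in G-K562 libraries, and was not tested.

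**Figure D2:**
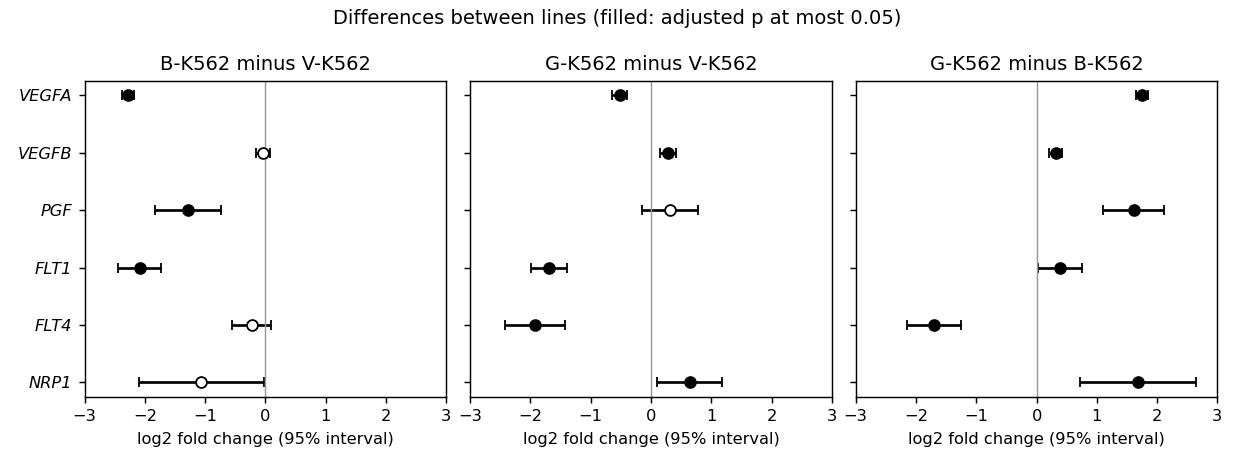
Log2 fold change of the 6 members tested in each pair of lines, with 95% intervals from limma-trend, where filled circles passed at an adjusted p of at most 0.05. All 6 lay left of 0 in B-K562 cells, where VEGFA, PGF and FLT1 passed, FLT1 and FLT4 lay furthest left in G-K562 cells, and FLT4 was the only member to the left of 0 when G-K562 was set against B-K562 cells.

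Of the 9 members, 6 passed the filter on low values and 3 did not. In B-K562 cells 3 of the 6 tested were lower than in V-K562 cells and none was higher, where 37.2% of all genes tested passed as lower and 38.6% as higher. All 3 were changed by at least 2-fold, a criterion that 14.1% of all genes met as lower and 6.46% as higher, or 2109 and 967 genes, which became 1554 and 1426 after quantile normalization. In G-K562 cells 3 members were lower and 2 higher than in V-K562 cells, against 33.3% and 33.5% of all genes. FLT1 and FLT4 were the 2 changed by at least 2-fold, both lower, against 10.3% of genes lower and 8.81% higher by that criterion. Set against B-K562 cells, G-K562 cells had 5 members that passed as higher and 1 as lower, where 38.1% and 40.5% of all genes did. With the 2-fold criterion VEGFA, PGF and NRP1 were higher and FLT4 lower, against 17.4% and 12.5% of all genes. The median log2 fold change of the 6 was -1.18 in B-K562 and -0.12 in G-K562 cells, beside 0.007 and 0.003 for all genes tested. Since so many genes passed, a passing p alone did not set the members apart. Both comparisons with V-K562 used the same control libraries.

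Levels between genes were compared per kb of merged exon. Per kb, the level of VEGFA was 4473 ± 221 (SD, n = 3) in V-K562 cells, 3113 ± 76.7 in G-K562 cells and 924 ± 16.0 in B-K562 cells. VEGFB stood at 1017 ± 53.8, 1236 ± 28.6 and 993 ± 30.03 in that order, so that VEGFB was the highest member in B-K562 cells, where the 3 libraries of VEGFA lay between 908 and 940 and those of VEGFB between 959 and 1016. The level of VEGFA per kb was 4.40 times that of VEGFB in V-K562 cells, 2.52 times in G-K562 cells and 0.930 times in B-K562 cells, and its share of the summed level of the 4 ligands was 81.1%, 71.1% and 47.9%.

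The remaining members followed far below. In V-K562 cells PGF at 23.4 ± 5.50 and FLT4 at 19.4 ± 3.72 per kb overlapped, FLT1 came next at 13.7 ± 1.103 and NRP1 at 3.32 ± 0.96, and NRP1, VEGFC, NRP2 and KDR each overlapped the next in that order. In B-K562 cells FLT4 came next after the ligands VEGFB and VEGFA, at 16.4 ± 1.49, above PGF at 9.22 ± 2.01 and FLT1 at 3.20 ± 0.69, which overlapped NRP1. In G-K562 cells PGF came next after VEGFA and VEGFB, at 29.0 ± 4.51, while NRP1 overlapped FLT4 and FLT4 overlapped FLT1, with libraries between 3.66 and 6.73 per kb.

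**Figure D3:**
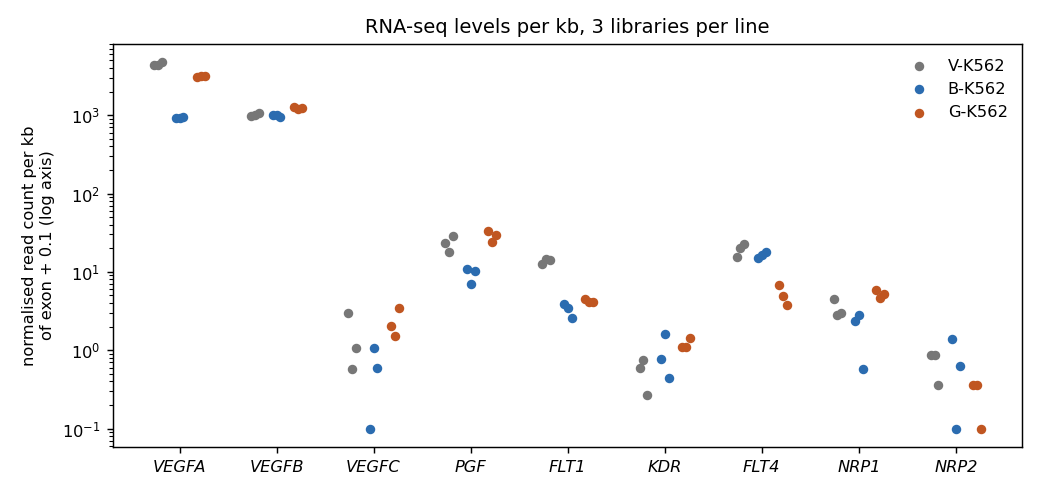
Normalised read count per kb of merged exon, plus 0.1, on a log axis, with 1 point per library for each gene and line. The ligands VEGFA and VEGFB stood at 908 per kb or above in all libraries, and every receptor and neuropilin at 22.7 or below.

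Over the 9 libraries, the profiles most like that of VEGFA, by Euclidean distance of log2 values centred on the V-K562 mean among 12188 other genes, were those of CTH, at a distance of 0.20, YPEL3, at 0.29, and LINC00173, at 0.38. CTH, which encodes a cysteine-producing enzyme, fell from 3312, 3437 and 3655 to 674, 665 and 667 in B-K562 cells and stood at 2496, 2551 and 2596 in G-K562 cells. The nearest profiles to FLT1 were those of FCGR2B (0.48), FAM114A1 (0.60) and WDR54 (0.64), to VEGFB those of C2CD2L (0.11), ZKSCAN3 (0.11) and SCAMP2 (0.12), and to PGF those of ZSWIM4 (0.55), ZRANB1 (0.56) and RASGEF1B (0.56). FLT4 was nearest to ADCY10P1 (0.57), GFI1B (0.61), an erythroid repressor, and OAF (0.62). The nearest to NRP1 were further away, MAGEA4 (1.37), NCF4 (1.43) and TRPA1 (1.56). These distances describe likeness over 3 lines only.

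Chromatin accessibility was read from the peaks called in each ATAC-seq library. FLT1 had 11 regions within 5 kb, VEGFA 6, PGF 5, VEGFB 4, NRP2 3, and FLT4 and NRP1 2 each, while no peak was called near KDR or VEGFC, the receptor and the ligand with hardly any reads. Of the 33 regions, 7 (compared to 31.5% of all regions) had a peak in all 9 libraries and 10 (compared to 19.3% of all regions) had one in a single library. A region's value was its summit pileup, the number of tags over the summit, in libraries that the authors had sampled to an equal number of tags. Values were scaled between libraries, by factors of 0.87 to 0.91 for V-K562, 0.98 to 1.01 for B-K562 and 1.11 to 1.17 for G-K562 libraries, and a library without a peak was given 17, the 5th percentile of all summits. A fold change against a line without peaks therefore depends on that value and is neither a measurement nor a bound. Across all regions the log2 fold change rose with GC content, with Spearman's rho of 0.41 between B-K562 and V-K562 cells and 0.48 between G-K562 and V-K562 cells. Values with scaling within bins of GC content are given where they changed a call or moved a value.

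At VEGFA the region upstream of the start was open in every library, and 2 regions just past the start were called in all B-K562 and in no V-K562 libraries. The upstream region (chromosome 6, 43769507 to 43770306) had deposited summit pileups of 93, 116 and 122 tags in V-K562, 104, 125 and 115 in B-K562 and 156, 134 and 141 in G-K562 libraries. The log2 fold change of the scaled values was -0.07 in B-K562 cells (95% interval -0.38 to 0.23, adjusted p = 0.70) and 0.07 in G-K562 cells (95% interval -0.22 to 0.35, adjusted p = 0.69). Neither passed, and their direction depended on the scaling: within bins of GC content they were -0.26 and -0.23, and with no scaling 0.06 and 0.38, the last with an adjusted p of 0.042. Counted from the start, the summit lay at -160 bases in all B-K562 libraries, at -512 or -544 in the G-K562 libraries, and at -192, -544 and -544 in V-K562 libraries.

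A region in the untranslated 5′ exon, with its summit 480 bases past the start (43770553 to 43770861), had peaks of 95, 74 and 90 tags in B-K562 libraries, a peak of 75 in G-K562 replicate 2, and none in V-K562 libraries. A region in the adjoining intron, 1344 bases past the start (43771389 to 43771749), had peaks of 63, 85 and 71 tags in B-K562 libraries and none in the other 6. A comparison of either region with the other lines rests on the value that stands for a missing peak, so their calls are a description and no test is given for them. They are GC-rich, at 73.5% and 74.0%.

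Further into VEGFA, an intronic region at 4704 bases had peaks of 59 and 68 tags in V-K562 replicates 1 and 2, 77, 74 and 93 in B-K562 and 63, 85 and 67 in G-K562 libraries, and passed no test. A region at 3168 bases was called in B-K562 replicate 2 and G-K562 replicates 1 and 3, and 1 in the last exon, 15328 bases from the start, only in V-K562 replicates 1 and 2, at 39 and 45 tags. Within 6 kb past the start the lowest summit that was called had 59 tags, so a library without a peak there may still have held tags.

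**Figure D4:**
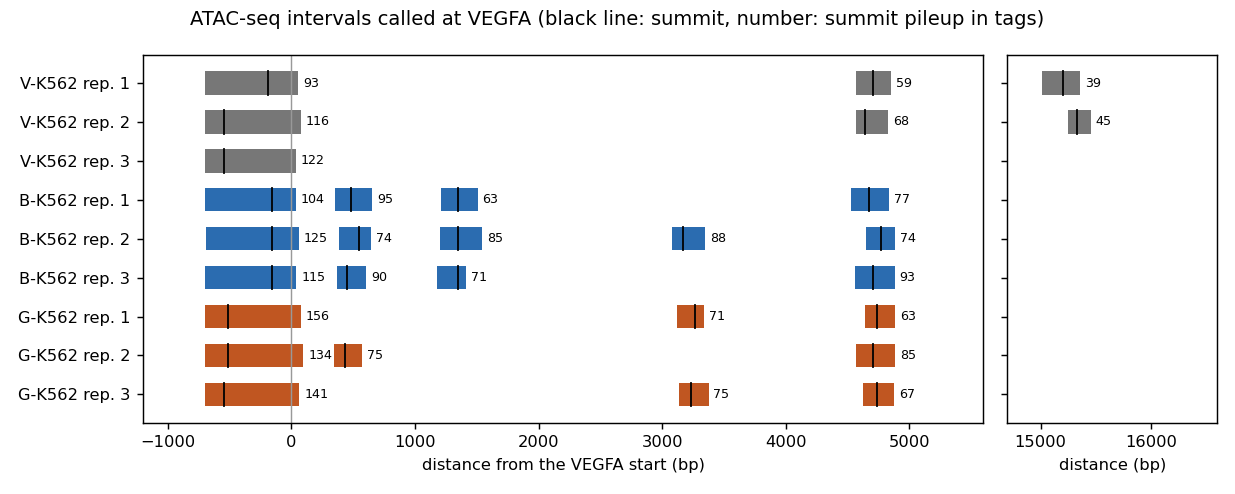
Intervals called at VEGFA in each ATAC-seq library by distance from the gene start in bp on a broken axis, with the summit as a black line and its pileup in tags as a number. The upstream interval was called in all 9 libraries, and the intervals near 480 and 1344 bp in all 3 B-K562 libraries, in none of the V-K562 libraries, and near 480 bp in 1 G-K562 library.

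The promoter of VEGFB was called as a peak in the BASP1 lines only. The region next to its start, which overlaps its printed upstream sequence (chromosome 11, 64234193 to 64234576, summit at -215 bases, GC content 77.3%) had peaks of 61 and 55 tags in B-K562 replicates 1 and 2, 61, 102 and 85 in G-K562 libraries, and none in V-K562 libraries. Since no V-K562 library had a peak there, no test is given. The regions with summits at -4231 and 6857 bases from the start were open in all libraries but lay 119 bases from the start of DNAJC4 and 500 bases from that of FKBP2, and were tied to VEGFB by distance alone. The downstream region had 285, 292 and 280 tags in V-K562 and 442, 392 and 452 in G-K562 libraries, a log2 fold change of 0.26 after scaling (adjusted p = 0.015) that turned to -0.17 within bins of GC content. The upstream region differed between the BASP1 lines by -0.33 (adjusted p = 0.036), a call lost with no scaling, at -0.13 (adjusted p = 0.38), and without B-K562 replicate 2 or 3 or G-K562 replicate 1 or 3, at adjusted p of 0.069 to 0.11. In G-K562 against V-K562 cells the upstream region did not pass, at -0.13, but did within bins of GC content, at -0.43 (adjusted p = 0.013).

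PGF had a weak region over its start and part of its printed upstream sequence, called in all libraries (chromosome 14, 74955414 to 74955937), with 33, 34 and 29 tags in V-K562, 28, 30 and 18 in B-K562 and 26, 39 and 47 in G-K562 libraries. It passed no test, with log2 fold changes of -0.49 in B-K562 cells (95% interval -1.02 to 0.04, adjusted p = 0.16) and -0.13 in G-K562 cells. Within bins of GC content they were -0.73 (adjusted p = 0.056) and -0.55 (adjusted p = 0.096). A region downstream of PGF, 15443 bases from its start, had 22 and 29 tags in B-K562 replicates 1 and 2 and 47, 42 and 47 in G-K562 libraries and passed between them (0.81, adjusted p = 0.020), but at 0.055 to 0.063 with B-K562 replicate 1 or 3 or G-K562 replicate 1 or 3 left out. B-K562 replicate 3 had no peak there, so the difference rests in part on the value for a missing peak. The region lies in the same stretch of chromosome 14 as PGF, and the part of that shift in it was not tested.

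FLT1 had no peak at its start in any library, although its mRNA was measured in all. Its strongest region was intronic, 86391 bases from the start (chromosome 13, 28408305 to 28408986), with 161, 148 and 165 tags in V-K562, 187, 169 and 153 in B-K562 and 140, 132 and 143 in G-K562 libraries. In B-K562 cells, where FLT1 mRNA was lowest, the difference of -0.04 did not pass (95% interval -0.27 to 0.19). In G-K562 cells the scaled value was lower by 0.51 on the log2 scale (adjusted p = 0.0034), but by 0.11 within bins of GC content (adjusted p = 0.33) and by 0.19 with no scaling (adjusted p = 0.12). Against B-K562 cells it was lower in G-K562 cells by 0.49 (adjusted p = 0.0027) and under every scaling. The other 10 regions of FLT1 were weak, with summits of 15 to 25 tags, and 6 of them were called in 1 library only, each time a V-K562 library. All 11 regions had a peak in at least 1 V-K562 library, 5 did in B-K562 and 2 in G-K562 cells, where 79.9%, 67.9% and 70.9% of all regions did. V-K562 libraries had more peaks in all, 53862 to 55570 against 47111 to 48905 and 48408 to 51199, and the part of this in the FLT1 counts was not tested.

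The strongest region of FLT1 is shown because it was the one member region, called in all 9 libraries, that differed between the BASP1 lines under every scaling and lies at no other gene's start. The 201 bases around its summit, chr13:28408637-28408837 of GRCh38 on the forward strand, read as follows, with the motif of GATA1-type factors on either strand in capitals. The motif was taken as AGATAA, with T also allowed as its first base and G as its last.
FLT1 intron: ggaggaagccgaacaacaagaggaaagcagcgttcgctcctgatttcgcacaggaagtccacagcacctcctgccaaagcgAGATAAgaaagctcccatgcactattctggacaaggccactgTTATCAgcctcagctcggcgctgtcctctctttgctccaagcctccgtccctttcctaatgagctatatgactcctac
It held 2 such motifs, and 36.1% of the 201-base windows around all region summits held at least 1. These motifs were chosen after the values were seen.

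FLT4 had an intronic region 38974 bases from its start with 46, 61 and 55 tags in V-K562, 62, 65 and 90 in B-K562 and 64, 68 and 91 in G-K562 libraries, which passed no test (0.13 in G-K562 cells, 95% interval -0.28 to 0.54), although FLT4 mRNA fell in that line. Near NRP1 and NRP2 no summit exceeded 34 tags and no region passed a test with the scaling described above. The strongest region of NRP1, 141368 bases from its start, had 32, 19 and 20 tags in B-K562 libraries and 21 in V-K562 replicate 1. No G-K562 library had a peak there. Its difference between the BASP1 lines, -0.46 within bins of GC content, rests on the value for a missing peak. No test is therefore given. Over all members, of the 7 regions with a peak in each of the 6 libraries of B-K562 and V-K562 cells 0 passed. Of all 17 tested, 2 counted as higher and none as lower, where 9.3% of all regions passed as higher and 16.2% as lower. The 2 were those of VEGFA at 480 and 1344 bases, which entered through B-K562 peaks alone and rest on the value for a missing peak. Their count is therefore no result about the members. In G-K562 against V-K562 cells 2 of 11 counted as higher and 1 as lower, against 17.2% and 25.2% of all regions. Of these 3, 2 were among the 8 regions with a peak in all 6 libraries. The other was the VEGFB region at -215 bases, which had no V-K562 peak. Between G-K562 and B-K562 cells 1 of 20 counted as higher and 4 as lower, against 12.9% and 15.4%. Of these, 2 were among the 8 regions with a peak in all 6 libraries. The rest were the VEGFA regions at 480 and 1344 bases, which lacked G-K562 peaks in part or in all, and the PGF region at 15443 bases, which lacked a peak in B-K562 replicate 3. With no scaling between libraries the split of all regions into higher and lower changed from 4855 and 8437 to 8254 and 6627 in B-K562 cells, from 9350 and 13683 to 16887 and 9855 in G-K562 cells, and from 7770 and 9272 to 13662 and 8000 between the BASP1 lines.

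**Figure D5:**
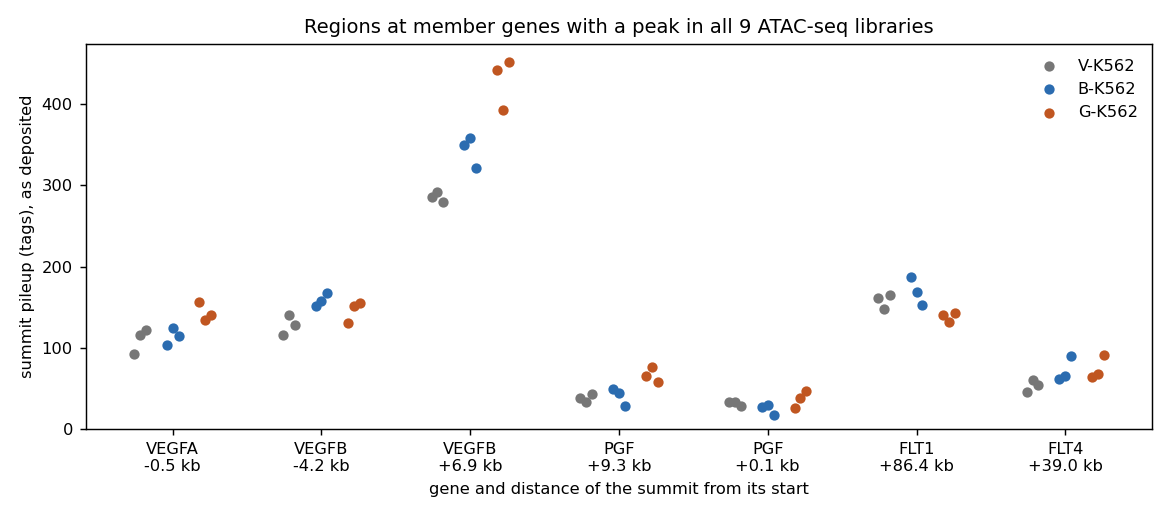
Deposited summit pileup, in tags, of the 7 regions with a peak in all 9 libraries, by gene and distance of the summit from its start, with 1 point per library. The region at +6.9 kb of VEGFB, which lies at the start of FKBP2, was the strongest, and the FLT1 intron was lowest in G-K562 cells.

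Genes that control hypoxia-inducible factors or bind the VEGFA promoter moved by less than 2-fold against V-K562 cells, apart from WT1 in G-K562 cells. Of 14 such genes 12 were tested, all but HIF3A and ARNT2. In B-K562 cells 5 of the 12 were higher and 5 lower, with a median log2 fold change of 0.01, where 38.6% and 37.2% of all genes passed. EPAS1, an oxygen-regulated subunit, fell from 1802, 1735 and 2039 to 892, 964 and 968 in B-K562 cells, by 0.98, and rose by 0.56 in G-K562 cells, a difference of 1.54 between the BASP1 lines. HIF1A, another such subunit, rose by 0.13 in B-K562 and fell by 0.45 in G-K562 cells. ARNT, their common partner, fell by 0.49 and 0.58. VHL, which marks the factors for degradation, fell by 0.55 in B-K562 cells and did not pass in G-K562 cells (0.07).

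Among the oxygen sensors, EGLN3, itself a target of these factors, fell by 0.78 in B-K562 cells and did not pass in G-K562 cells (0.08). EGLN1 did not pass in B-K562 cells (-0.10) and fell by 0.76 in G-K562 cells, EGLN2 did not pass in B-K562 cells (0.19) and rose by 0.61 in G-K562 cells, and HIF1AN rose by 0.13 and 0.48. Of the promoter-binding factors, SP1 fell by 0.20 in B-K562 and rose by 0.18 in G-K562 cells, and SP3 rose by 0.13 and 0.38. WT1 rose from 1267, 1172 and 1130 to 1348, 1369 and 1383 in B-K562 cells, by 0.20, and to 3218, 2906 and 3297 in G-K562 cells, by 1.37. EGR1 rose by 0.49 in B-K562 cells and did not pass in G-K562 cells (-0.15). With BASP1-G2A 6 of the 12 were higher and 3 lower, with a median of 0.13, against 33.5% and 33.3% of all genes. Between the BASP1 lines 8 were higher in G-K562 cells and 3 lower, with a median of 0.37, against 38.1% and 40.5%, and EPAS1 and WT1 were the 2 changed by at least 2-fold, WT1 by 1.17.

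The signalling genes downstream of VEGF receptors moved in both directions. Between the BASP1 lines 24 of 48 tested were higher in G-K562 cells and 20 lower, where 38.1% and 40.5% of all genes were. In B-K562 cells 20 of 47 tested were higher and 18 lower, with a median of 0.06, and in G-K562 cells 19 of 48 were higher and 13 lower, with a median of 0.02, where 38.6%, 37.2%, 33.5% and 33.3% of all genes passed in the same order. PLA2G4A, which releases arachidonic acid, fell from 30, 25 and 28 to 5, 4 and 2 in B-K562 cells and rose to 80, 67 and 99 in G-K562 cells. In the fit of B-K562 with V-K562 cells PLA2G4A passed the filter through V-K562 libraries alone, so that fall is a description. PIK3CG, a catalytic subunit of PI3-kinase, fell by 1.24 in B-K562 cells, while PIK3R2, a regulatory subunit, and PPP3CA, the catalytic subunit of calcineurin, rose there by 1.08 and 1.09. In G-K562 cells SH2D2A, an adaptor that binds KDR, fell by 1.52. SHC2, another adaptor, fell by 1.13 in B-K562 cells and rose to 212% of the V-K562 mean in G-K562 cells.

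The list of semaphorins and plexins that share the neuropilins also held GIPC1 and L1CAM, which are neither. Of its genes, 9 of 11 tested were higher and 1 lower in G-K562 than B-K562 cells, with GIPC1 and L1CAM among the 9. Their median was 1.34 beside -0.02 for all genes, of which 38.1% and 40.5% passed. In B-K562 cells 3 of 11 tested were higher and 5 lower, with a median of -0.25, against 38.6% and 37.2% of all genes. In G-K562 cells 7 of 9 were higher and none lower, with a median of 0.78, against 33.5% and 33.3%. SEMA3A, a repulsive ligand of NRP1, had values of 59, 52 and 52 in V-K562 and 32, 27 and 32 in B-K562 cells, and reached 502, 610 and 659 in G-K562 cells. SEMA3F, which binds NRP2, fell by 1.91 in B-K562 and rose by 1.08 in G-K562 cells. L1CAM, which pairs with NRP1, fell by 1.80 in B-K562 cells, and PLXNA2 rose by 1.42 in G-K562 cells. PLXNA4 was at 5, 6 and 2 in V-K562 and 15, 15 and 10 in B-K562 cells. It passed the filter through B-K562 libraries alone, so these values are a description and no test is given. It is 1 of the 3 counted as higher in B-K562 cells and the 1 counted as lower between the BASP1 lines.

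Of the genes for VEGF processing, decoys and matrix partners, 9 of 15 tested were lower and 4 higher in B-K562 cells, with a median of -0.54, where 37.2% and 38.6% of all genes passed. In G-K562 cells 3 were lower and 9 higher, with a median of 0.38, against 33.3% and 33.5%. Between the BASP1 lines 10 were higher in G-K562 cells and 3 lower, with a median of 0.59, against 38.1% and 40.5%. PTPRB, a phosphatase known from endothelial cells, fell from 437, 511 and 551 to 54, 50 and 81 in B-K562 cells and to 17, 11 and 12 in G-K562 cells. Of the heparan sulfate proteoglycans, SDC1 fell by 2.62 in B-K562 and rose by 0.77 in G-K562 cells, and SDC2 fell in both, by 1.34 and 1.22. SDC4 fell by 0.90 in B-K562 and rose by 1.13 in G-K562 cells, and GPC1 did not pass in B-K562 cells (-0.47) and rose by 1.58 in G-K562 cells.

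Of the PDGF and angiopoietin relatives, 3 of 7 tested were lower and 2 higher in B-K562 cells, with a median of -0.47, where 37.2% and 38.6% of all genes passed. In G-K562 cells 2 of 6 were lower and 3 higher, with a median of 0.36, against 33.3% and 33.5%. Between the BASP1 lines 3 of 7 were higher in G-K562 cells and 2 lower, with a median of 0.39, against 38.1% and 40.5%. PDGFB fell in both lines, by 1.68 and 2.40, and its receptor PDGFRB by 1.77 and 1.39. PDGFA rose from 163, 195 and 180 to 1083, 979 and 1015 in G-K562 cells. ANGPT2, a ligand of the receptor TEK, was at 1, 3 and 1 in V-K562, 17, 21 and 15 in B-K562 and 88, 77 and 81 in G-K562 libraries. Against V-K562 cells it passed the filter through the BASP1 lines alone, so its place among the genes counted as higher there is a description.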

How the data were processed

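RNA-seq and ATAC-seq were done on 9 libraries each. The authors aligned the RNA-seq reads to GRCh38 with STAR, removed duplicates, counted unique reads per RefSeq gene with Subread and ran DESeq2 once per pair of lines. The deposited RNA-seq score values were obtained by dividing these counts by DESeq2 size factors, with rounding to whole numbers, so limma was used and not a count model. The deposited ATAC-seq signal is the tag pileup, per library, at MACS2 peaks called after all libraries had been sampled to an equal number of tags. The authors' fold changes and p-values were not used.

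Genes that reached 10 in 3 or more libraries of the fit, and regions called in 3 or more of them, were tested with limma-trend 3.58.1 in R 4.3.3. For G-K562 against B-K562 cells the fit held all 9 libraries, so V-K562 libraries counted towards this filter. The fits used log2(value + 1), where the ATAC value was the scaled pileup. P-values were adjusted by the Benjamini-Hochberg method over all genes or regions tested, with a limit of 0.05. Peaks of all libraries were merged into regions, and regions were scaled by the trimmed mean of their ratios. The script was tested on simulated data. G-K562 was set against B-K562 cells in 1 fit of all 9 libraries, with the B-K562 values scaled by the ratio of the V-K562 values in both tables. Overlap means that the ranges of the libraries of 2 lines or genes meet. Read depth of the RNA-seq libraries was estimated from the rounding. No replicates were identical, and p-values measure the spread between these cultures.

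The members, the lists and the tests were chosen with earlier results of these data known. The text names all members, VEGFD, up to 2 of the largest rises and falls of at least 2-fold per list and comparison with V-K562, every tested gene of the list on hypoxia-inducible factors, the 3 nearest profiles per member among genes with a mean of at least 50, regions at starts, regions that passed and each member's strongest region. Other genes named in a list, and the remaining regions, were added after the values were seen. Alternatives were TMM factors, quantile normalization, other pseudocounts and filters, no trend, other scalings and values of regions, other distances, the replicate block and each library left out. Promoter windows of VEGFA, FLT4 and NRP1 were not used here. Figures were drawn with matplotlib 3.10.9.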

Additional observations from a re-analysis of the deposited data

Results flagged for a closer look

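The change against V-K562 cells differed between wtBASP1 and BASP1-G2A, by the test of G-K562 against B-K562 cells, for the mRNA of all 6 members tested. Of all genes tested in that comparison 38.1% passed as higher and 40.5% as lower, so passing alone did not set the members apart. VEGFA differed by 1.75 on the log2 scale, PGF by 1.61, NRP1 by 1.69, FLT4 by -1.70, VEGFB by 0.32 and FLT1 by 0.39. Each passed in every alternative run except FLT1, which passed in 7 of 14. Values for the shift of chromosome 14 stand beside those of PGF above. BASP1 mRNA itself was higher in G-K562 than B-K562 cells, by 0.56.

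Of the regions with a peak in all libraries of both BASP1 lines, that at -4231 bases from VEGFB differed by -0.33 and the FLT1 intron at 86391 bases by -0.49. The FLT1 intron passed in all 13 alternatives, the region near VEGFB in 8 of 13.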

How the results depend on the processing

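Of 736 values under an alternative, 667 kept their direction and their side of the threshold, or stayed within 1.5 times a count. VEGFA mRNA passed in all alternatives, at -2.38 to -2.24 in B-K562 cells, -0.54 to -0.48 in G-K562 cells and 1.74 to 1.88 between the BASP1 lines. The number of members that passed ranged from 3 to 4, 4 to 5 and 5 to 6 in the same order when each library was left out. The shares of all genes given above are those of the main fits. The deviations of same-numbered libraries correlated at -0.080 to 0.136 in RNA-seq and 0.0075 to 0.121 in ATAC-seq, and the main fits did not pair samples by replicate number. Neither the labels nor these correlations can tell whether same-numbered libraries were prepared together. With the replicate block 4, 5 and 6 members passed, and NRP1 in B-K562 cells reached an adjusted p of 0.023. Of all genes 5855 passed as higher and 5626 as lower of 14958, then 5052 and 5023 of 15271, and 5894 and 6257 of 15521. With that block 2, 3 and 5 member regions passed, among them regions that rest on the value for a missing peak. Of all regions 4954 passed as higher and 7923 as lower of 52204, then 9378 and 13322 of 54213, and 7650 and 9030 of 60181.

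With a peak required in every library, 0 regions in place of 2 passed in B-K562 against V-K562 cells and 2 in place of 5 between the BASP1 lines, where fewer regions were tested. With no scaling 5 in place of 3 passed in G-K562 against V-K562 cells. Of all 54213 regions tested there, 16887 then passed as higher and 9855 as lower, in place of 9350 and 13683. Between the BASP1 lines 2 to 5 passed with 1 library left out, 3 without B-K562 replicate 1 and 2 without B-K562 replicate 3 or G-K562 replicate 1 or 3. Within 2 kb and 10 kb of the genes lay 30 and 38 regions in place of 33.

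Directions turned only for differences that had not passed, except at 6857 bases from VEGFB in G-K562 cells, and the cause was not tested. In B-K562 against V-K562 cells FLT4 mRNA was 0.15 after quantile normalization and VEGFB mRNA between -0.063 and 0.0061 with 1 library left out. There, scaling within GC bins gave -0.015 and -0.18 at -4231 and 6857 bases from VEGFB and 0.17 in the FLT1 intron, which was 0.099 with no scaling and 0.044 without B-K562 replicate 3. The VEGFA upstream region was 0.061 with no scaling, 0.099 by mean pileup and 0.021 without B-K562 replicate 1. In G-K562 against V-K562 cells no scaling gave 0.19 at -4231 bases from VEGFB and 0.18 at the PGF start, which ranged from -0.27 to 0.12 with 1 library left out. GC bins gave -0.17 at 6857 bases from VEGFB, -0.10 in the FLT4 intron and -0.23 upstream of VEGFA, which was -0.044 without V-K562 replicate 1, and NRP2 at 33829 bases ranged from -0.39 to 0.062 with 1 left out. Between the BASP1 lines the FLT4 intron was 0.042 with no scaling and -0.28 to 0.012 with 1 library left out, and upstream of VEGFA the mean pileup gave -0.0026.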
